A study of Homo sapiens with 2 samples.

Results

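The chemokines and chemokine receptors of Hodgkin and Reed-Sternberg cells described here were 7 ligands (CCL17, CCL22, CCL5, CCL3, CCL4, CCL20 and CXCL10) and 3 receptors (CCR7, CXCR5 and CXCR4). They were measured in L-428, an established Hodgkin lymphoma (HL) cell line, on Affymetrix HG_U133PLUS2.0 microarrays. Every probe set annotated to exactly 1 of these symbols was used, which gave 14 of the 54675 probe sets and covered 9 of the 10 genes, out of 19775 genes with a probe set of their own. CCL3 had no probe set of its own. One array was hybridized with RNA from L-428 cells carrying pcDNA6.2-GW/EmGFP-miR-PRAME, which expresses an artificial microRNA against the tumor antigen PRAME (knock-down cells). The other array was hybridized with RNA from L-428 cells carrying pcDNA6.2-GW/EmGFP-miR-neg, the negative control (control cells). Per the methods, transfectants were selected with blasticidin as stable cells, and both vectors carry the green fluorescent protein EmGFP. Whether each was a single clone is not given in the sources used here. The comparison asks which of these genes had another expression after PRAME knock-down.

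Chemokines are small secreted proteins that attract leukocytes through G protein-coupled receptors. CC and CXC chemokines differ in the spacing of their first cysteines. Hodgkin and Reed-Sternberg cells are a small part of the HL tumor mass and are known for secreting chemokines such as CCL17 (TARC), CCL22 (MDC) and CCL5 (RANTES), which attract T cells, eosinophils and mast cells. Many chemokine genes are induced through NF-kB, interferon and STAT signaling. CCR7, CXCR4 and CXCR5 guide B cells within lymphoid organs. CCR7 and CXCR4 are also known from HL cells, whereas the B cell program that includes CXCR5 is largely lost in them.

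The values were MAS5 signals on a linear scale, and both arrays had been scaled to a trimmed mean of 500.1. Because each condition had a single array, nothing could be tested and no p-value is given. The log2 ratio (knock-down over control) was shifted so that its median was 0 among the 27307 probe sets whose mean signal reached 97.7, the midpoint of the array. These are called above the filter. Of the 14 probe sets, 9 were above the filter, for CCL17, CCL5, CXCL10, CCR7 and CXCR4. The 5 others, for CCL22, CCL4, CCL20 and CXCR5, were below it. Within the 5840 genes with at least 2 probe sets above the filter, log2 ratios of probe sets for the same gene scattered with an SD of 0.33, a spread within arrays and not between cultures. Signals of different probe sets depend on their probes and were not compared between genes. In bulk RNA, fewer expressing cells and less RNA per cell cannot be told apart.

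PRAME itself (204086_at) reached 1251 in knock-down cells and 2115 in control cells, which is 57.3% of the control after centering. Of 10 marker genes for Hodgkin and Reed-Sternberg cells, 9 could be measured and these 9 were above the filter, with signals of CD30 (TNFRSF8) of 1667 in knock-down cells and 1893 in control cells. At least 1.5-fold lower were 2 of the 9, and none was higher. Among all 11794 genes above the filter, 5.42% were at least 1.5-fold lower and 7.54% higher. CD40, a costimulatory receptor of B cells, had a signal of 1146 in knock-down cells and 1849.6 in control cells (1.67-fold lower), and FUT4, which makes the CD15 antigen, had 782 in knock-down cells and 1177 in control cells (1.55-fold lower). Other probe sets of CD40 and FUT4 had log2 ratios up to 0.66 and 0.36. All 6 T cell markers and all 6 markers of monocytes and macrophages were below the filter, including CD3D, CD3E, CD14 and CSF1R. The summed signal was 391 in knock-down cells and 230 in control cells for the T cell markers, and 276 and 203 for those of monocytes and macrophages in knock-down and control cells. Low signals were in general higher on the knock-down array. The median signal of all 54675 probe sets was 110 in knock-down cells and 91.9 in control cells. Of the 1000 probe sets nearest in signal to CCL4, which was below the filter, 42.8% were at least 1.5-fold higher and 18.4% lower. The sums were not corrected for this. Of 6 fibroblast markers, 3 were above the filter, namely COL1A1, COL1A2 and DCN, and the list summed to 1243 in knock-down cells and 1514 in control cells. COL1A1 had a signal of 790.3 in knock-down cells and 1199 in control cells (1.56-fold lower). Its 3 probe sets above the filter had log2 ratios from -0.76 to 0.92, so that its direction depended on the probe set. COL1A2 had 184 in knock-down cells and 53.4 in control cells (3.33-fold higher). This rests on 1 probe set above the filter, with a control signal below 97.7. The part of these marker differences in the results was not tested. Control probe sets at the 3' and 5' ends gave a 3' over 5' ratio of 1.04 in knock-down cells and 0.948 in control cells for GAPDH. For ACTB it was 1.17 in knock-down cells and 1.14 in control cells.

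The promoters of the member with the lowest log2 ratio above the filter (CXCL10) and of the receptor with the ratio closest to 0 (CXCR4) are shown for the letters that resemble binding motifs of interferon and NF-kB factors. RefSeq promoters of GRCh38.p14 span 250 bases before to 50 bases after a start, and 6 of the 10 genes matched (CXCR4, CCL20, CXCL10, CXCR5, CCL22 and CCL3, with 10 windows). The CXCL10 window is chr4:76023448-76023747 and the CXCR4 window, 1 of 3 for this gene, is chr2:136118100-136118399, both on the minus strand. Capitals mark matches on either strand to an interferon response core (GAAANNGAA) or an NF-kB core (GGGANNTNC), and overlapping matches are joined.
CXCL10: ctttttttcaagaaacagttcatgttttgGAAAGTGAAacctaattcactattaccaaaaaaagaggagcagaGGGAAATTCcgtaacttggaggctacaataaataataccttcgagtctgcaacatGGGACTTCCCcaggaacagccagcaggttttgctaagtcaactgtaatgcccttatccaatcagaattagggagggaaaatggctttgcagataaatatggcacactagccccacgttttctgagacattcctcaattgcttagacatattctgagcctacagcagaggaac
CXCR4: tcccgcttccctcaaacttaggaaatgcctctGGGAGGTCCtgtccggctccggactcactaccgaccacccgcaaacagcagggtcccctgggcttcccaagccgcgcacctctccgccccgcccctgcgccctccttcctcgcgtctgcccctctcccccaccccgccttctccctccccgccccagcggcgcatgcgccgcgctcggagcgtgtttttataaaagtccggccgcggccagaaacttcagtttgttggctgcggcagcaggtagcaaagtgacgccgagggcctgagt

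The motifs were searched in 2 rounds, and the second was fitted to what had been seen. A first search used 5 motifs, for an interferon response element, NF-kB (in 2 spellings), STAT6 and STAT. It matched the interferon response element in CXCL10 (present in 3.57% of all 35116 windows) and an NF-kB motif in CCL20 (in 1.91%), and no NF-kB motif in CXCL10. The NF-kB letters were then rewritten after runs resembling NF-kB sites had been read in the CXCL10 sequence, the interferon motif was shortened by 1 base, and the STAT6 motif was dropped. In this second search CXCL10 held 1 interferon response core, at -221 to -213 from the start. It held 3 NF-kB cores, of which 1 lay at -177 to -169 and 2, on opposite strands, overlapped between -122 and -113. CXCR4 held 1 NF-kB core, at -218 to -210, and the CCL20 match was lost. CCL3 held 1 interferon response core, at -57 to -49, and, in another of its windows, 1 NF-kB core, at -75 to -67. The interferon response core occurred in 8.11% and the rewritten NF-kB core in 16.6% of all windows. Since the NF-kB core was written to cover CXCL10, its matches there cannot be read against that share. A STAT palindrome (TTCNNNGAA, in 7.66% of the windows) was found in none of the 10 windows in either search. The GC content was 41.3% for CXCL10 and 66.7% for CXCR4, against a median of 58.7% for all windows. These matches are letters in a window, and binding was not measured.

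CXCL10 (IP-10), the interferon-induced ligand of CXCR3 on activated T cells, showed the lowest log2 ratio of the probe sets above the filter. Its signal (204533_at) was 1134 in knock-down cells and 2049.9 in control cells. After centering, the knock-down signal was 53.6% of the control (log2 ratio -0.90, 1.87-fold lower). Of the 1000 probe sets nearest in mean signal, 1.2% had a lower log2 ratio, and their log2 ratios had an SD of 0.33. CXCL10 was measured by this probe set alone. Under all settings examined its log2 ratio was between -0.99 and -0.81.

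CCL5, a chemokine that attracts T cells, eosinophils and mast cells, was lower in all 3 of its probe sets. For 1405_i_at the signal was 1001 in knock-down cells and 1532 in control cells (log2 ratio -0.66). For 204655_at the signal was 879 in knock-down cells and 1317 in control cells (log2 ratio -0.63). For 1555759_a_at it was 715 in knock-down cells and 1044 in control cells (log2 ratio -0.59). The log2 ratios of the 3 probe sets lay within 0.067 of each other, whereas the median range was 0.45 among the 1557 genes with 3 probe sets above the filter. Of these genes, 14 (0.899%) were at least 1.5-fold lower in all 3 probe sets, CCL5 included. The 3 probe sets share the RNA of each array and are no replicates.
The difference of CCL5 lay at the 1.5-fold threshold, between 1.51-fold and 1.58-fold lower. After quantile normalization it was 1.44-fold to 1.49-fold lower, and after subtraction of the trend of the log2 ratio with signal (loess) 1.44-fold to 1.49-fold lower, so that no CCL5 probe set passed the threshold in these settings. Of the 1000 probe sets nearest in signal, between 4.0% and 6.4% had a lower log2 ratio than the CCL5 probe set.

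CCL17 (TARC), the ligand of CCR4 by which HL cells attract Th2 and regulatory T cells, had a high signal in both conditions. Its signal (207900_at) was 5537 in knock-down cells and 6089.7 in control cells (log2 ratio -0.18, 1.13-fold lower). Of the 1000 probe sets nearest in signal, 30.7% had a lower log2 ratio. The ratio of CCL17 thus lay inside the bulk of probe sets of like signal.

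**Figure D1:**
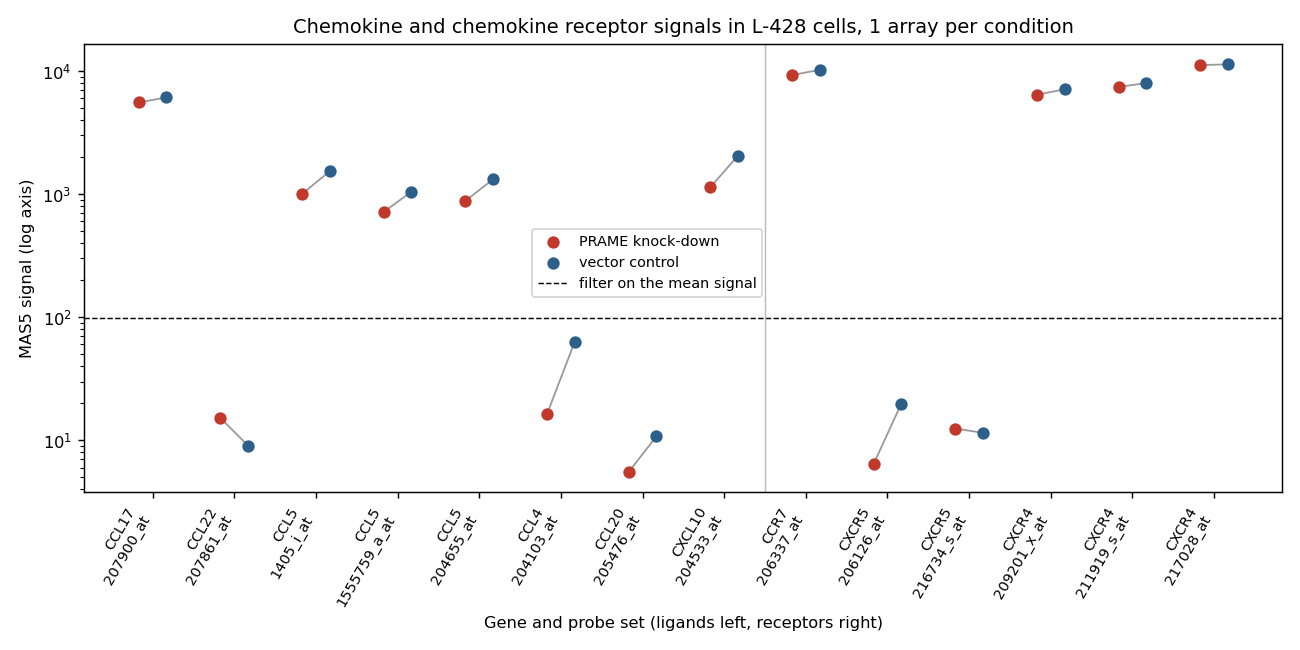
MAS5 signals (log axis) of the 14 probe sets of 9 chemokine and chemokine receptor genes in L-428 cells with PRAME knock-down (red) and vector control (blue), 1 array per condition, with ligands left and receptors right. The 9 probe sets above the dashed line at 97.7 were all lower on the knock-down array, from 715 for CCL5 to 11150.0 for CXCR4 there.

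The other ligands had no signal above the filter. CCL22 (MDC), the second ligand of CCR4, had signals of 15.2 in knock-down cells and 9.05 in control cells for 207861_at. CCL4 (MIP-1 beta), an inflammatory CC chemokine, had signals of 16.3 in knock-down cells and 63.1 in control cells for 204103_at. CCL20 (MIP-3 alpha), the ligand of CCR6, had signals of 5.52 in knock-down cells and 10.7 in control cells for 205476_at. All of these signals lay below 97.7, and no fold change is given. With signals below 97.7 set to 97.7, both arrays were equal for each of these genes. For CCL3 (MIP-1 alpha), another inflammatory CC chemokine, the array had only the probe set 205114_s_at, which is shared with CCL3L1 and CCL3L3. Its signal was 70.7 in knock-down cells and 59.5 in control cells and cannot be assigned to 1 of the 3 genes.

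The receptors CCR7 and CXCR4 differed little between both conditions. CCR7, the receptor of CCL19 and CCL21 that directs lymphocytes to the T cell zone, had a signal of 9253 in knock-down cells and 10187 in control cells for 206337_at (log2 ratio -0.18). CXCR4, the receptor of CXCL12, was measured by 3 probe sets. The signal was 6401 in knock-down cells and 7082 in control cells for 209201_x_at (log2 ratio -0.19). It was 7413 in knock-down cells and 7957 in control cells for 211919_s_at (log2 ratio -0.15). It was 11150.0 in knock-down cells and 11294 in control cells for 217028_at (log2 ratio -0.064). All 4 probe sets were lower in knock-down cells by 1.05-fold to 1.14-fold, and between 18.7% and 31.2% of the 1000 probe sets nearest in signal had a lower log2 ratio.
CXCR5, the receptor of CXCL13 on follicular B cells, was below the filter in both of its probe sets. Its probe set 206126_at had signals of 6.41 in knock-down cells and 19.8 in control cells, and 216734_s_at had signals of 12.4 in knock-down cells and 11.5 in control cells. The probe sets pointed in opposite directions at these signals. Of 6 B cell markers, 5 had a probe set of their own and 3 were above the filter. CD79A, a chain of the B cell receptor complex, had a signal of 332 in knock-down cells and 178 in control cells (1.80-fold higher). Only 1 of the 2 probe sets of CD79A was above the filter. The share of genes at least 1.5-fold higher among all 11794 was 7.54%. MS4A1 (CD20) and the kinase BLK had log2 ratios of 0.44 and -0.48.

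As a group, the 9 probe sets above the filter all had log2 ratios below 0, with a median of -0.19. Among all 22379 probe sets with 1 gene symbol above the filter, 52.0% were below 0 and the median was -0.017. At least 1.5-fold lower were 4 of the 9, namely CXCL10 and the 3 of CCL5, where the share among all 22379 was 6.54%. None of the 9 was at least 1.5-fold higher, where the share was 7.38%. None was at least 2-fold lower, where the share was 0.983%. Counted in genes by the median of their probe sets, 2 of 5 were at least 1.5-fold lower (CXCL10 and CCL5), where the share among all 11794 genes was 4.49%. Without centering 2 of the 9 probe sets passed 1.5-fold, where the share among all 22379 was 5.46%. After quantile normalization or loess 1 of the 9 did (CXCL10), where the shares were 6.94% and 7.06%, so that the count was then close to the background. The 9 log2 ratios were below 0 in each of these settings. The members were chosen with earlier results of these data known, so that these counts beside the background are no independent evidence of a direction.

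**Figure D2:**
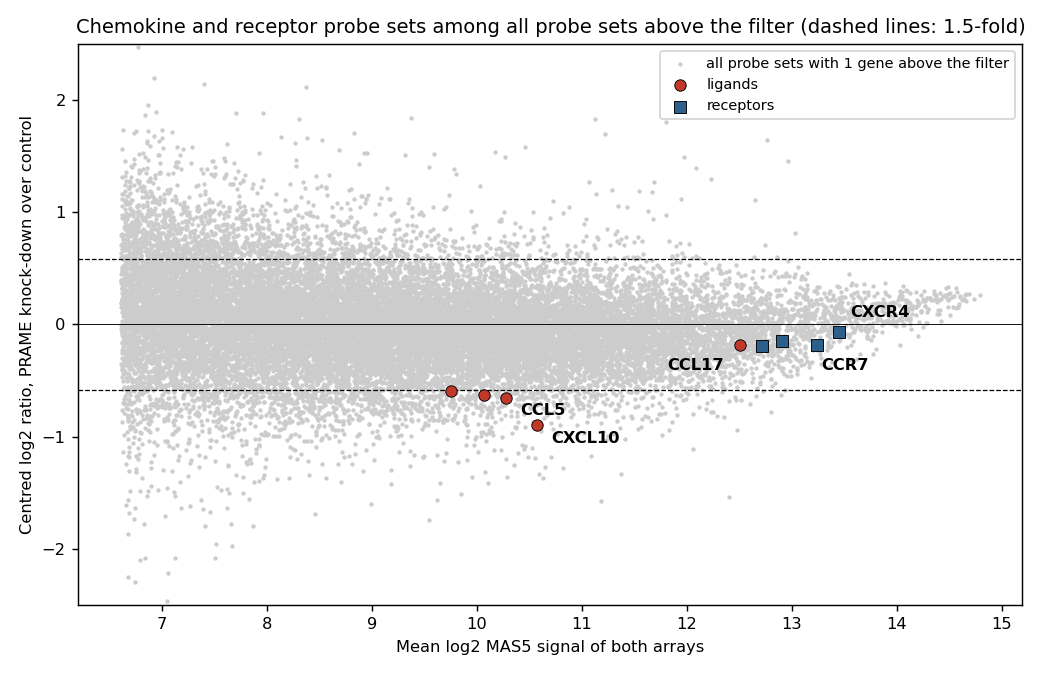
Centered log2 ratio of PRAME knock-down over control against the mean log2 MAS5 signal, with 1 grey point for each probe set with 1 gene above the filter, ligands as red circles and receptors as blue squares (1 array per condition, dashed lines at 1.5-fold, 7 probe sets beyond the axis). CXCL10 at -0.90 and CCL5 at -0.66 to -0.59 lie below the lower line, and CCL17, CCR7 and CXCR4 lie between -0.19 and -0.064.

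**Figure D3:**
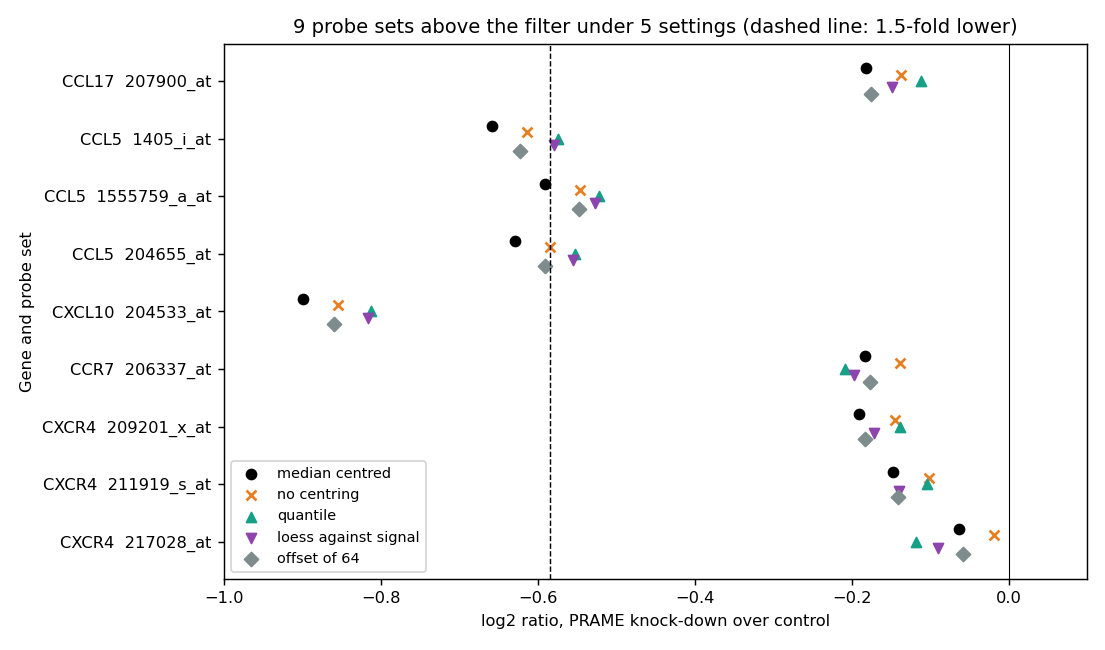
Log2 ratio of PRAME knock-down over control for the 9 probe sets above the filter under 5 settings (symbols, 1 array per condition), with a dashed line at 1.5-fold lower. CXCL10 stays left of the line, the CCL5 probe sets lie on both sides of it, and CCL17, CCR7 and CXCR4 lie between it and 0.

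The binding partners of these genes were mostly low in L-428 cells. CCR4, the receptor of CCL17 and CCL22, had a signal of 1629 in knock-down cells and 1856 in control cells (log2 ratio -0.23). CXCR3, the receptor of CXCL10, had signals of 92.8 in knock-down cells and 65.0 in control cells, below the filter. CCR6, the receptor of CCL20, had signals of 48.9 in knock-down cells and 3.55 in control cells, also below it. Low signals were in general higher on the knock-down array. Of the ligands of the 3 receptors, CXCL12 had signals of 97.5 in knock-down cells and 96.8 in control cells, just below the filter, and CCL19, CCL21 and CXCL13 had signals of at most 40.5 in both conditions.

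Of 41 other chemokine ligands, 33 had a probe set of their own and 4 were above the filter. None of these 4 was past 1.5-fold. CX3CL1 (fractalkine) had a signal of 3092 in knock-down cells and 3341 in control cells (log2 ratio -0.16). Its second probe set had a log2 ratio of -0.57, just short of 1.5-fold. CCL1, a ligand of CCR8, had a signal of 2666 in knock-down cells and 2631 in control cells. CXCL16 and CCL27 had log2 ratios of 0.18 and 0.040. CXCL9 and CXCL11, the other interferon-induced ligands of CXCR3 and the neighbours of CXCL10 on chromosome 4, were below the filter. CXCL9 had signals of 109 in knock-down cells and 82.3 in control cells, and CXCL11 had signals of 47.4 in knock-down cells and 38.2 in control cells.
Of 20 other chemokine receptors, 18 had a probe set of their own and 2 were above the filter, CCR4 and the scavenging receptor ACKR2. ACKR2 had signals of 134 in knock-down cells and 85.9 in control cells, which is 1.51-fold higher. With loess its log2 ratio was 0.37, below 1.5-fold.

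Counted in genes by the probe set with the highest signal (11794 genes), 5.42% passed 1.5-fold in the lower and 7.54% in the higher direction. Of 37 genes that signal from chemokine receptors, 32 were above the filter, with 3 higher, none lower and a median log2 ratio of -0.047. WAS, the regulator of the actin cytoskeleton in blood cells, was 2.35-fold higher, with a signal of 1632 in knock-down cells and 672 in control cells. Only 1 of the 2 probe sets of WAS was above the filter. GRK5 and GRK3, kinases of active G protein-coupled receptors, were also higher. GRK5 had a signal of 255 in knock-down cells and 124 in control cells, and GRK3 one of 817 in knock-down cells and 486 in control cells (1.63-fold higher). Other probe sets gave log2 ratios down to 0.19 for GRK5 and 0.020 for GRK3, so that these differences depended on the probe set. RGS1 and RGS13, inhibitors of G protein signaling in B cells, had log2 ratios of -0.20 and 0.18.
Of 18 genes that modify chemokines, their receptors or their binding to the cell surface, 13 were above the filter, with 1 lower and none higher (median -0.13). This was the heparan sulfate polymerase EXT1, with a signal of 568 in knock-down cells and 883 in control cells (log2 ratio -0.68). Its second probe set had a log2 ratio of -0.041.

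Of 27 genes of the NF-kB, STAT, IRF and AP-1 signals that induce chemokine genes, 26 were above the filter. The median was -0.20, with 18 of the 26 below 0. Among all 11794 genes above the filter, the median was -0.0069 and 51.0% were below 0. At least 1.5-fold lower were 2 of the 26 genes, where the share among all genes was 5.42%. None was at least 1.5-fold higher, where the share was 7.54%. TNF, a cytokine that induces chemokine genes through NF-kB, had a signal of 288 in knock-down cells and 558 in control cells. NFKB2, the NF-kB subunit of the alternative pathway, had a signal of 1777 in knock-down cells and 2775 in control cells (log2 ratio -0.69), and its second probe set above the filter had a log2 ratio of -0.31. The AP-1 factors BATF3 and JUN had log2 ratios of 0.062 and 0.037, while another probe set of JUN was at -0.49. JUNB and BATF, also AP-1 factors, had log2 ratios of -0.33 and 0.23. IRF1 and IFNGR2, a transcription factor and a receptor chain of the interferon response, had log2 ratios of -0.58 and -0.55, just short of 1.5-fold. The second probe set of IRF1 was at 0.12. This list was chosen with results of these arrays known and is no independent evidence of a direction.

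**Figure D4:**
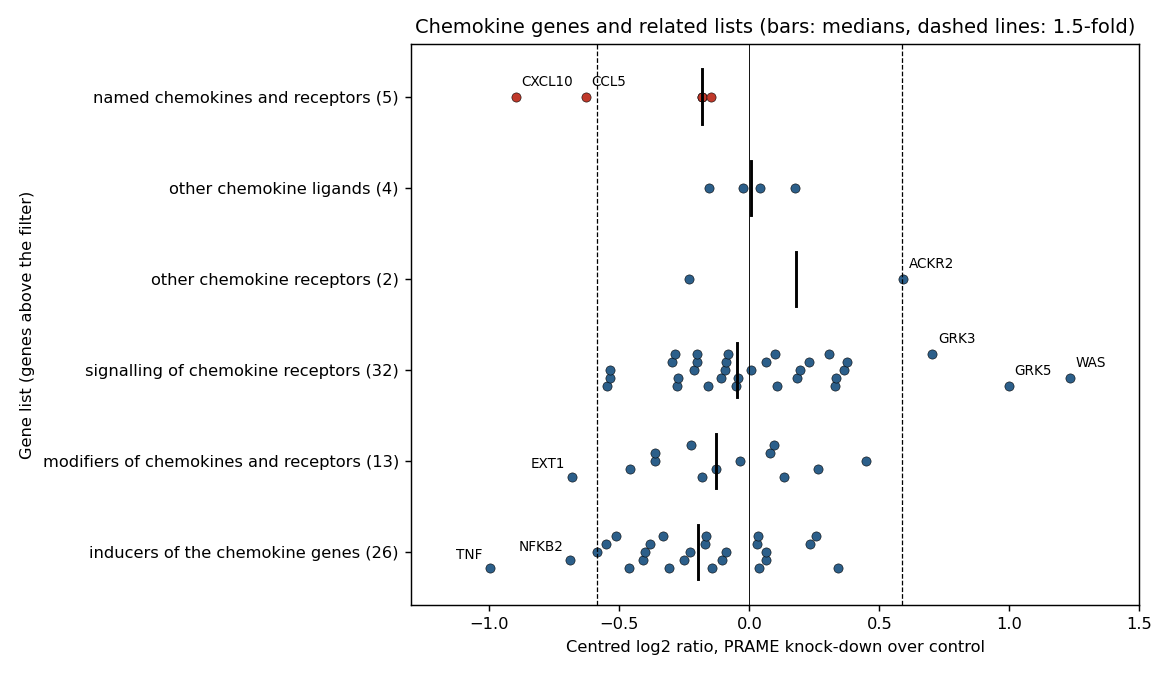
Centered log2 ratio of PRAME knock-down over control for genes above the filter (points, 1 array per condition), with the number of genes in brackets, black bars at the medians and dashed lines at 1.5-fold. The 5 chemokine and receptor genes at the top have a median of -0.18 over genes, the 26 inducers one of -0.20 and the 32 signaling genes one of -0.047, and genes past 1.5-fold are named.

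By position, CCL5, CCL3, CCL4 and CCR7 lie on chromosome 17, CCL17 and CCL22 on chromosome 16, CCL20 and CXCR4 on chromosome 2, CXCL10 on chromosome 4 and CXCR5 on chromosome 11. Neighbours were counted among genes above the filter only, so that CXCL9 and CXCL11 were left out. Of the 10 such genes nearest to CXCL10 in order, 5 on each side, none was at least 1.5-fold lower and 1 was higher (NAAA, log2 ratio 0.82). Their median log2 ratio was 0.0012. Of the 10 nearest to CCL5, 1 was at least 1.5-fold lower and 2 were higher, with a median of 0.15. The 419 genes of chromosome 4 above the filter had a median of -0.097 and the 718 of chromosome 17 a median of -0.025. The 10 genes nearest to CCL17 had a median of -0.21, close to the -0.18 of CCL17 itself, while the 532 genes of chromosome 16 had a median of 0.081. The 10 genes nearest to CXCR4 had a median of -0.030 and none was past 1.5-fold. Of the 10 nearest to CCR7, 3 were at least 1.5-fold lower (WIPF2, IGFBP4 and KRTAP1-5) and none was higher, with a median of -0.068. The share of genes at least 1.5-fold lower among all 11794 was 5.42%, and the share at least 1.5-fold higher was 7.54%.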

How the data were processed

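RNA of L-428 cells carrying the PRAME knock-down or the control vector was hybridized to 1 HG_U133PLUS2.0 array each. The authors made MAS5 signal intensities with Expression Console 1.1 and deposited them on a linear scale. MAS5 subtracts background and combines the probes of a probe set. RMA values and detection calls were not used here. The series text names another cell line and array type, but labels, methods and the number of probe sets give L-428 and HG_U133PLUS2.0. The filter, log2 scale and centering (0.045 subtracted) were computed from the deposited intensities without the 62 control probe sets. A probe set was kept at a mean log2 signal at or above percentile 50.

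Gene symbols came from the platform annotation, in which 41091 probe sets had 1 symbol, 1801 had several and 11721 had none. Symbols of 41037 were updated through RefSeq (GRCh38.p14). The array annotation names no build, so array positions are given as chromosome and order only. The members and gene lists were chosen with earlier results of these data known. Genes named are all members, PRAME, and genes past 1.5-fold in the 5 lists of other ligands, other receptors, signaling genes, modifiers and inducers. Binding partners, neighbours, markers and examples within 1.5-fold were named after their values were seen. Promoter motifs were searched in 2 rounds, with the NF-kB letters of the second rewritten after the CXCL10 sequence had been seen. A fold threshold replaced a test, and the precision is limited by having 1 array per condition. The scripts were tested on simulated data. The 9 alternatives were no centering, quantile normalization, loess (span 0.4), an offset of 64, a floor at 97.7, no filter, a filter at percentile 75, 1 median per gene, and no probe sets ending in _s_at, _x_at or _a_at. Computations used pandas 2.3.3 and numpy 2.4.6 in Python 3.11.15, loess used statsmodels 0.14.6, and figures used matplotlib 3.10.9.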

Additional observations from a re-analysis of the deposited data

How the results depend on the processing

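Among chemokine and receptor probe sets above the filter, the median log2 ratio was below 0 under all 9 alternatives, from -0.49 (no filter, 14 probe sets) to -0.13 (filter at the 75th percentile, 9 probe sets). The count of probe sets at least 1.5-fold lower, 4 of 9 in the report, was less stable. It was 2 without centering, 1 after quantile normalization, 1 after loess, 2 with the filter at the 75th percentile (which moves the centering median), and 2 of 5 when 1 median was taken per gene. The shares among all probe sets with 1 gene symbol were 5.46%, 6.94%, 7.06% and 4.14% in this order. Among all genes the share was 4.49%. Without a filter it was 7 of 14, with 1 at least 1.5-fold higher (CCL22), because the low probe sets of CCL4, CCL20, CXCR5 and CCL22 were then counted. Among all 41091 probe sets 14.6% were then lower and 18.2% higher by 1.5-fold. An offset of 64, a floor at 97.7 and the exclusion of probe sets ending in _s_at, _x_at or _a_at kept the count within 1.5 times. With the offset it was 3 of 9 (4.29% of all) and with the floor 4 of 9 (6.31% of all). With the exclusion it was 3 of 6, for which no share of all was computed. The size of the log2 ratios of the probe sets below the filter depended on how low signals were handled. For CCL4 the log2 ratio was -2.00 in the main setting and -0.70 with the offset. With the floor the log2 ratio of CCL22 was -0.045, against 0.70 without it, and those of CCL4, CCL20 and CXCR5 were also -0.045, since all floored values are equal before centering. No paired analysis was possible because each condition had 1 array. The promoter search depended on the motif letters, since the NF-kB matches in CXCL10 appeared, and the one in CCL20 was lost, when the NF-kB motif was rewritten after the sequence had been seen.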
